A study of Drosophila melanogaster with 2 samples.

Results

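Drosophila melanogaster carries a family of Pax-type genes, which encode transcription factors built around a paired DNA-binding domain. The 10 members described here are Pox neuro (Poxn), Pox meso (Poxm), shaven (sv), paired (prd), gooseberry (gsb), gooseberry-neuro (gsb-n), eyeless (ey), twin of eyeless (toy), eyegone (eyg) and twin of eyegone (toe). They were taken by symbol from the Ensembl annotation of the BDGP6 assembly by a rule that holds no measured value, though the set was picked with earlier results of these data known, and all 10 were found among 13968 protein-coding genes on the chromosome arms. For each gene, every deposited peak with its summit inside the gene or within 20 kb of its ends was collected.

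Chromatin bound by Poxn was immunoprecipitated from whole embryos of the strain Poxn-GFP, aged 0 to 24 h, and sequenced. The strain carries an insertion that targets Poxn and expresses a Poxn-eGFP fusion protein. There was 1 group of 2 biological replicates, numbered as in the labels, and no control group was analysed here. The sample descriptions name an antibody against GFP, whereas the antibody field names Poxn. How the fusion is driven and in which cells is not stated in the labels. Whole embryos from 0 to 24 h pool all stages and cell types of embryogenesis, so that binding in few cells and weak binding in many cannot be told apart.

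Pax proteins act in patterning and in the specification of cell types, and several control their own or each other's transcription in flies and vertebrates. In the fly embryo, prd acts as a pair-rule gene and gsb as a segment polarity gene downstream of it, with gsb-n expressed in the central nervous system. Poxm acts in the development of somatic muscle. Poxn directs sense organ precursors to a chemosensory fate, and sv acts in later cell types of sense organs and of the eye. The genes ey and toy head the network of eye development, and eyg and toe act in growth and patterning of the eye. The question here is what the Poxn map holds at Poxn itself and at the genes of its relatives.

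The files give 4 pairs of peak lists. The main list was made by the authors on both replicates together, the files name a further list of the pair conservative, and each replicate has a list of its own. Each list exists as ranked candidates, 146020 in the main list, and as a thresholded subset, 1488 peaks in the main list. The signal of a peak is the authors' enrichment value, and its scale can differ between lists, so ranks are given beside it. The median signal of a candidate was 16.8 in the main list, 11.2 in replicate 1 and 10.7 in replicate 2. The irreproducible discovery rate (IDR) estimates how far a candidate's rank repeats between data sets, and every thresholded peak had a −log10 IDR of at least 2. For the main and conservative lists this holds by construction, because each was matched to the ranked list in which all its peaks reached 2. In the list of a single replicate the IDR cannot compare the 2 biological replicates. A value over 2 in the main list also does not by itself show that both replicates ranked a candidate high, as the Poxn peak below shows. A candidate's top percent is its rank by signal as a share of its list, so a small value means a strong candidate.

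The genomic DNA under the thresholded peaks carries the measurement, and the summits with 100 bases on each side are shown for the peaks near prd, toy and toe. They are from the RefSeq sequence of the dm6 release, plus strand, 5′ to 3′. Capitals mark any match to 4 words searched on both strands. GTCACGC is a core of paired-domain sites. TAATTA is a core of homeodomain sites. The third word, TATCGATA, is the DNA replication-related element. The fourth, GAGAG, is a GAGA factor word.
prd window, chr2L:12103515-12103715: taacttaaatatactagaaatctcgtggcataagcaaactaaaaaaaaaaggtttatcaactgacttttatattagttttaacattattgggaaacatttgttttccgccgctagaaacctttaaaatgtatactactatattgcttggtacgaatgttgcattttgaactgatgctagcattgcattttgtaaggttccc
toy window, chr4:1027202-1027402: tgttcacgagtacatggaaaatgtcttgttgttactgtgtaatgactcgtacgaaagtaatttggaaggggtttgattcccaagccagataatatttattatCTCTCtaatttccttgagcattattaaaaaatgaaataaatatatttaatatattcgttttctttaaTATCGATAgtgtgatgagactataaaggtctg
toe window, chr3L:12407036-12407236: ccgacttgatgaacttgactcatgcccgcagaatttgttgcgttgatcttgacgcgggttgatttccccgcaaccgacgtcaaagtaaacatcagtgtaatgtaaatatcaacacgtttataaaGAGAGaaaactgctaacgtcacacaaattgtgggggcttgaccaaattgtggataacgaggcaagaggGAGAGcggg
The first 2 windows are rich in A and T, with 30.8% and 29.9% G or C, against 45.8% in the toe window. The median was 34.8% over the main thresholded peaks and 46.3% over all main candidates. The prd window held none of the 4 words. The toy window held TATCGATA from 69 to 76 bases downstream of the summit, and GAGAG on the minus strand, printed as CTCTC, from 2 to 6 bases downstream. The toe window held GAGAG from 24 to 28 and from 92 to 96 bases downstream of the summit. Neither the paired-domain core nor the homeodomain core occurred in these windows.

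The thresholded peaks within 20 kb of the Pax-type genes lay at neighbouring genes and not in the members. In the main list 3 of 10 members, Poxn, prd and toe, had a peak within 20 kb, against 47.4% of protein-coding genes. In the conservative list there were 2 of 10, prd and toe, against 45.4%. Replicate 1 gave 2 of 10, Poxn and toe, against 31.2%, and replicate 2 gave 3 of 10, prd, toy and toe, against 37.9%. The gene toe was thus the only member with a peak in all 4 lists, and 6 members (Poxm, sv, gsb, gsb-n, ey and eyg) had a peak in none. Inside the genes there were 0 of 10 members with a main peak, against 5.08% of all protein-coding genes. Within 500 bp of a member's transcription start site (TSS) there were also 0 of 10, against 7.72%, and both counts were 0 in the other 3 lists. Chromosome 4 is poor in candidates throughout, as described below, and without its 3 members (sv, ey and toy) the count within 20 kb was 3 of 7, against 47.6% of protein-coding genes outside that chromosome. With 10 genes, these counts are not read as setting the members apart from the background. There is no test on these counts, because the design has 1 group and the genes are not replicates.

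The count depended on the distance allowed. Within 10 kb 0 of 10 members had a main peak, against 33.0% of protein-coding genes. Within 50 kb there were 7 of 10, against 71.1%. The median distance of a gene to the nearest main peak was 31.5 kb for the 10 members and 22.3 kb for 13945 protein-coding genes on arms with a peak. The order turned round without chromosome 4, where sv, toy and ey lay 273 to 664 kb from the nearest main peak. It was then 20.5 kb for 7 members and 22.0 kb for 13865 protein-coding genes. The member windows are longer, with a median of 51.1 kb against 42.2 kb for all protein-coding genes. Just inside the limit lay the peak of prd, 17.8 kb from the gene. Just outside it lay the peaks nearest to gsb-n, at 20.5 kb, and to Poxm, at 20.8 kb. Between 20 and 50 kb the peaks again lay at other genes. Near Poxn these were a peak of signal 70.4 in an intron of the muscle gene Zasp52, 41.7 kb away, and one of 54.4 at the promoter of Rif1, 34.1 kb away. Near eyg it was a peak of 128 at the promoter of sti, 46.9 kb away.

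**Figure D1:**
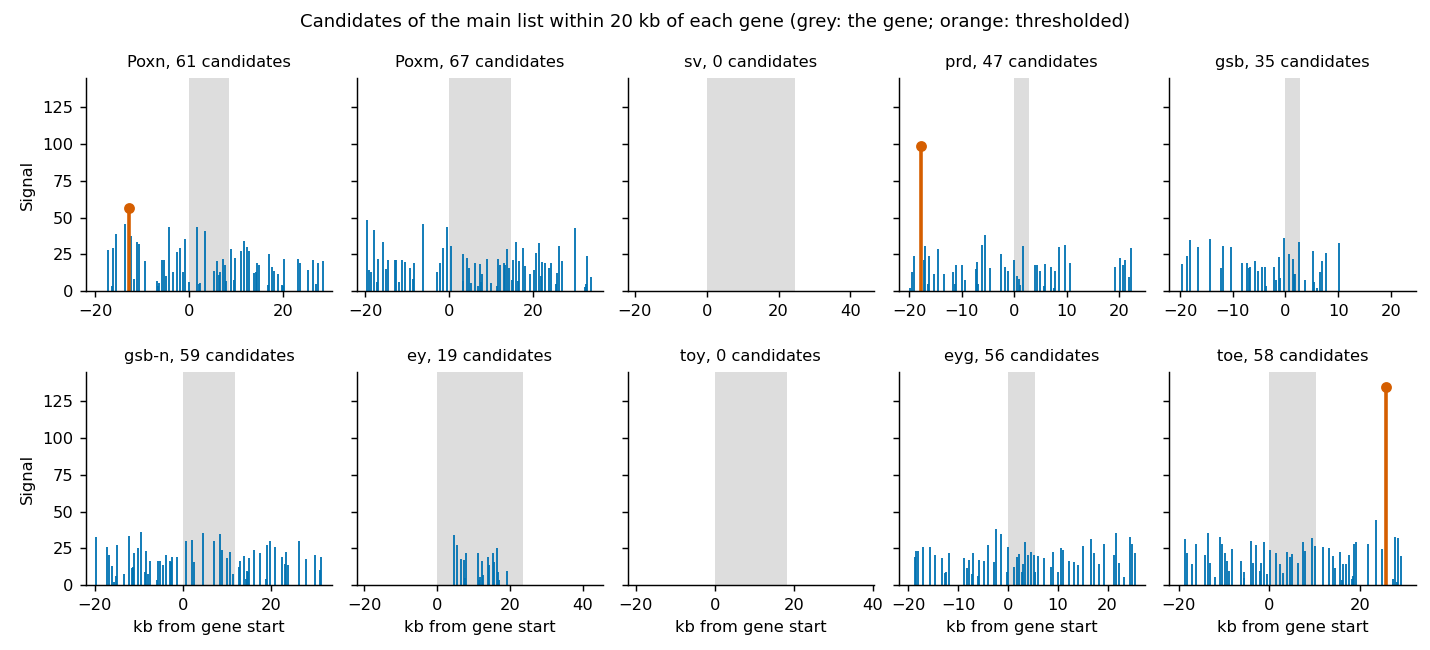
Signal of every main-list candidate within 20 kb of each Pax-type gene, against the distance of its summit in kb from the start of the gene in the direction of transcription; grey marks the gene and orange the thresholded peaks. The 3 thresholded peaks, in the Poxn, prd and toe panels, all lie outside the grey gene bodies, and the sv and toy panels are empty.

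Poxn, FBgn0003130, lies on the minus strand at chr2R:15826693-15835055, nested in the gene tun on the opposite strand. Its 1 main peak was at chr2R:15847824-15848127, in an intron of tun, with its summit 12921 bp upstream of the Poxn TSS. The summit was 603 bp upstream of a tun TSS and 614 bp upstream of the TSS of CG8249. Both are closer to it than the TSS of Poxn, though neither is within 500 bp. Its signal was 56.4 in the main list, rank 1564, or the top 1.07%, with a −log10 IDR of 2.44. The summit with 100 bases on each side held none of the 4 words and was 43.3% G or C. The conservative list holds the same candidate at the same signal with a −log10 IDR of 0.150, and it is not among the thresholded conservative peaks. The 2 replicates differed here. Replicate 1 gave a signal of 49.6, rank 526, and a −log10 IDR of 2.94, and replicate 2 gave 2 overlapping candidates with signals of 12.3 and 10.5, ranks 41174 and 54228. The call at Poxn therefore rests on replicate 1, and in replicate 2 no thresholded peak was within 20 kb.

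Inside Poxn there were 11 candidates in the main list and none was thresholded. The highest had a signal of 43.7, rank 3348, the top 2.29%, with a −log10 IDR of 0.899, and its summit was in an intron 1399 bp downstream of the TSS. The same place had a signal of 27.4, rank 2289, in replicate 1. The overlapping candidate of replicate 2 had 14.3, and the highest of replicate 2 inside the gene was elsewhere, 3214 bp downstream, with 26.3 at rank 2812. A candidate 4208 bp upstream of the TSS showed the opposite order of the replicates. It had 43.3 in the main list, 10.04 in replicate 1 and 31.7 in replicate 2, where it was the highest of the whole window. The candidate within 500 bp of a Poxn TSS was weak, with 6.23 at rank 130348, the top 89.3%, in the main list. A further candidate, between the one 4208 bp upstream and the promoter, was more alike in the replicates. It had 35.2 in the main list, 19.6 in replicate 1 and 22.5 in replicate 2. Its −log10 IDR was 1.14 in the main list. In the conservative list it was 1.17, the highest of the Poxn window there. Thus the intron and the upstream region of Poxn held candidates near the top 2% to which the replicates gave different weight. The upstream region also held a weaker one with similar replicate signals, and the promoter, within 500 bp of a TSS, held little signal.

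Over the whole Poxn window there were 61 candidates in the main list, 63 in the conservative list, 44 in replicate 1 and 45 in replicate 2. For the 61 main candidates the median signal was 19.2, against 16.8 over all candidates. Of these 61, 29 overlapped a candidate in both replicates, 14 only in replicate 1, 15 only in replicate 2, and 3 in neither. The share present in both replicates over all member windows was 46.3% of 356 candidates, against 46.4% of 143270 candidates on all arms. The genes whose best candidate within 20 kb ranked most like that of Poxn in the 4 lists were CG8249, Traf-like and AnxB11, of 13791 genes compared by distance of logit top percents. For CG8249 this is partly the same peak, since its TSS is 614 bp away. Traf-like and AnxB11 had identical top percents in all 4 lists, so they are not read as separate cases.

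**Figure D2:**
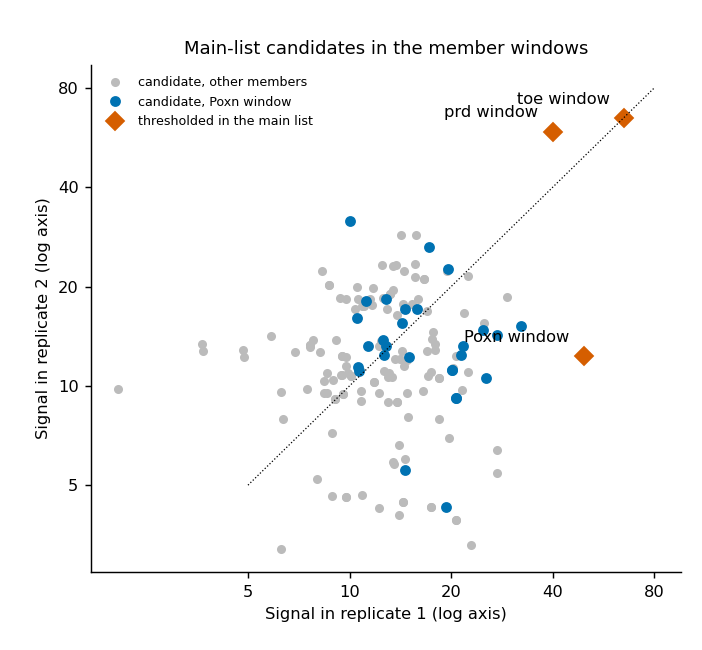
Signal in replicate 1 (x axis) against replicate 2 (y axis), both log axes, of the 165 main-list candidates in the member windows that overlap a candidate in both replicates; the dotted line marks equal values. The toe and prd peaks are high in both replicates, whereas the Poxn peak has 49.6 in replicate 1 and 12.3 in replicate 2.

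Poxm, FBgn0003129, at chr3R:8319025-8333792 on the minus strand, lacks a homeodomain, as Poxn does. It had 67 main candidates within 20 kb, 20 of them inside the gene, and no thresholded peak in any list. The highest had a signal of 48.0, rank 2348, the top 1.61%, and a −log10 IDR of 1.54, and lay 19641 bp upstream in intergenic sequence near stck, which encodes a LIM-domain adaptor. Replicate 1 gave 15.7 and replicate 2 gave 28.7 at that candidate. A candidate 527 bp upstream of the Poxm TSS had 43.6 in the main list, 14.2 in replicate 1 and 28.8 in replicate 2, where it was the highest of the window. Beyond the window, 21.9 kb from the gene and 1258 bp upstream of stck, was a main peak with a signal of 237 and rank 113. The candidate at the start of Poxm was in the top 2.32% of the main list with a −log10 IDR of 1.59. This was close in rank to the candidates 1399 bp downstream and 4208 bp upstream of the Poxn TSS.

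The segmentation genes differed among themselves. The pair-rule gene prd, FBgn0003145, at chr2L:12082995-12085827 on the minus strand, had 1 main peak at chr2L:12103463-12103766. That summit, shown above with its sequence, was 17788 bp upstream of prd but 136 bp upstream of a TSS of ThrRS, the threonyl-tRNA synthetase gene, and 330 bp upstream of one of Patsas. Its signal was 98.7, rank 554, with a −log10 IDR of 3.09 in the main list. In replicate 1 it had 40.0, rank 808, with a −log10 IDR of 0.107 and was not thresholded, and in replicate 2 it had 58.9, rank 501, with 3.40. By rank within its list the peak was in the top 0.770% in replicate 1 and the top 0.478% in replicate 2. The highest candidate inside prd had 30.5, the top 11.4%, in a coding exon 1162 bp downstream of the TSS.

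The genes gsb, FBgn0001148, at chr2R:25061964-25064643, and gsb-n, FBgn0001147, at chr2R:25040383-25052331, stand 9.63 kb apart on opposite strands, and their windows overlap over 30.4 kb. They share their best main candidate, 202 bp upstream of the gsb TSS. It had a signal of 35.9, rank 8206, the top 5.62%, with 13.7 in replicate 1 and 23.3 in replicate 2, and a −log10 IDR of 0.466. Of the 6 members with a main candidate within 500 bp of a TSS, gsb had the highest signal there. Values for the others were 25.9 at eyg, 24.1 at toe, 21.3 at prd, 17.5 at ey and 6.23 at Poxn, and Poxm, gsb-n, toy and sv had none. The highest candidate inside gsb-n had 35.6, the top 5.87%, in an intron 4586 bp downstream of its TSS. No thresholded peak of any list was within 20 kb of either gene, and the nearest main peak, of signal 65.5, lay in an intron of uzip.

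The 3 members on chromosome 4, all with roles in the eye, gave few candidates, and 2 of them gave none in the main list. The gene sv, FBgn0005561, at chr4:1088798-1113317, had 0 candidates within 20 kb in each of the 4 lists. The gene toy, FBgn0019650, at chr4:989725-1007922, had 0 in the main and conservative lists, 11 in replicate 1 and 1 in replicate 2. The gene ey, FBgn0005558, at chr4:697689-721173, had 19 main candidates, all inside the gene, the highest with 34.1, the top 7.11%, in an intron. Members elsewhere had between 35 and 67 main candidates each. The whole chromosome was poor in candidates, with 0.0979 per kb in the main list, against 1.03 to 1.14 per kb on the 5 major arms. Of its 80 protein-coding genes, 46 had no main candidate within 20 kb, against 94 of 13865 on the major arms. The absence of a peak within 20 kb of sv, ey or toy is therefore not comparable with its absence at a member on another arm. At ey the candidates were unevenly spread, with all 19 in the 23.5 kb of the gene and none in its flanks. The shortage therefore does not describe the gene body of ey.

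The 1 candidate of toy in replicate 2 was a thresholded peak, at chr4:1027154-1027449, and its sequence is shown above. It was 19380 bp outside toy and less than 500 bp upstream of a TSS of PlexA, which encodes a semaphorin receptor. Its signal was 97.5, rank 206, the top 0.196% of replicate 2, with a −log10 IDR of 4.93. This was the highest signal of any replicate 2 candidate in a member window. Neither replicate 1 nor the main or conservative list held an overlapping candidate. In replicate 1 the highest of the 11 candidates near toy had a signal of 21.0, the top 7.12%.

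The related genes eyg and toe, 29.9 kb apart on the minus strand of arm 3L, also differed. The gene toe, FBgn0036285, at chr3L:12422510-12432668, had the strongest main peak of any member window, at chr3L:12406984-12407287. This peak was 15374 bp beyond the end of toe, in an intron of SCaMC, which encodes a mitochondrial carrier, 1514 bp downstream of a SCaMC TSS. Its signal was 135, rank 338, with a −log10 IDR of 3.47, in the main list. Replicate 1 had 65.2, rank 328, and replicate 2 had 64.7, rank 438. These ranks are the top 0.313% in replicate 1 and the top 0.418% in replicate 2, whereas the peak near Poxn was in the top 0.502% and the top 39.2%. Inside toe the highest candidate had 31.7, the top 9.78%, in a coding exon. The gene eyg, FBgn0000625, at chr3L:12462537-12468021, had 56 main candidates and no thresholded peak in any list, and its best had 38.2, the top 4.27%, 714 bp upstream of a TSS of CG32102.

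**Figure D3:**
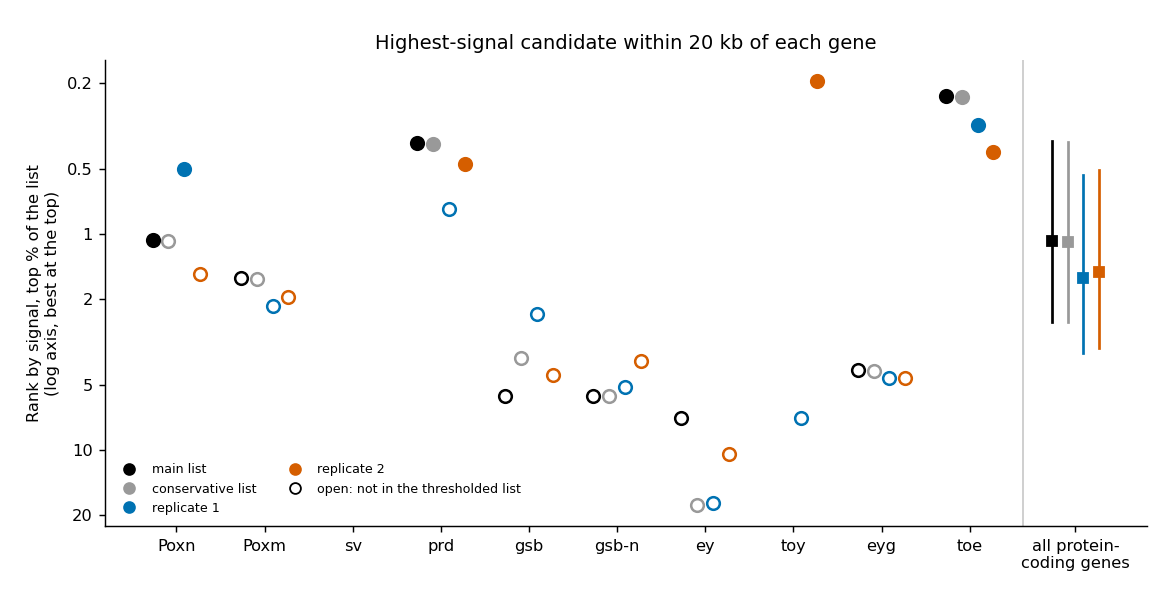
Rank by signal of the highest candidate within 20 kb of each member, as the top percent of its list on a log axis with the strongest at the top; filled points are in the thresholded list, and the squares and lines at the right are the median and quartiles over all protein-coding genes. The toe points sit between 0.231% and 0.418% in all 4 lists, whereas every gsb, gsb-n, ey and eyg point ranks weaker than the top 2%.

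The highest candidate within 20 kb of each member was ranked beside that of other genes. In the main list the median over the 8 members with a candidate was the top 2.94%, against 1.08% over 13828 protein-coding genes with one. In replicate 1 it was 2.36% for 9 members, against 1.61%, and in replicate 2 it was 1.96% for 9 members, against 1.50%. Without chromosome 4 the main median was 1.61% for 7 members, against 1.08% over 13794 genes, a smaller gap. The genes gsb and gsb-n enter with the same candidate, and with that candidate counted once the main median was also 1.61%. Inside the genes the order was the other way round, with 8.93% for 8 members and 15.1% for all protein-coding genes. The members are longer genes, with a median of 11.1 kb against 2.16 kb, and a longer gene holds more candidates to choose from. Whether gene length accounts for this order was not tested. No candidate within 20 kb of a member met the −log10 IDR of 2 without being in the main thresholded list. Over the whole main list 118 of 146020 candidates did, a share so small that their absence here is not read as a difference.

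The windows of the 10 genes cover 481.9 kb when overlaps are counted once. They held 356 main candidates, or 0.739 per kb, against 1.04 per kb over the arms. They held 3 thresholded peaks, or 6.22 per Mb, against 10.5 per Mb. Neither gap remained without chromosome 4. The other 7 windows held 337 candidates in 295.7 kb, or 1.14 per kb, against 1.05 per kb on the other arms, and 3 thresholded peaks, or 10.1 per Mb, against 10.6 per Mb. Of the 356 candidates, 0.843% were thresholded, against 1.01% on all arms. Their median signal was 18.9, against 16.9. The candidates were at promoters in 18.5% of cases, against 13.9%, in coding exons in 20.8%, against 18.8%, in introns in 31.5%, against 37.3%, and intergenic in 22.2%, against 24.2%.

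**Figure D4:**
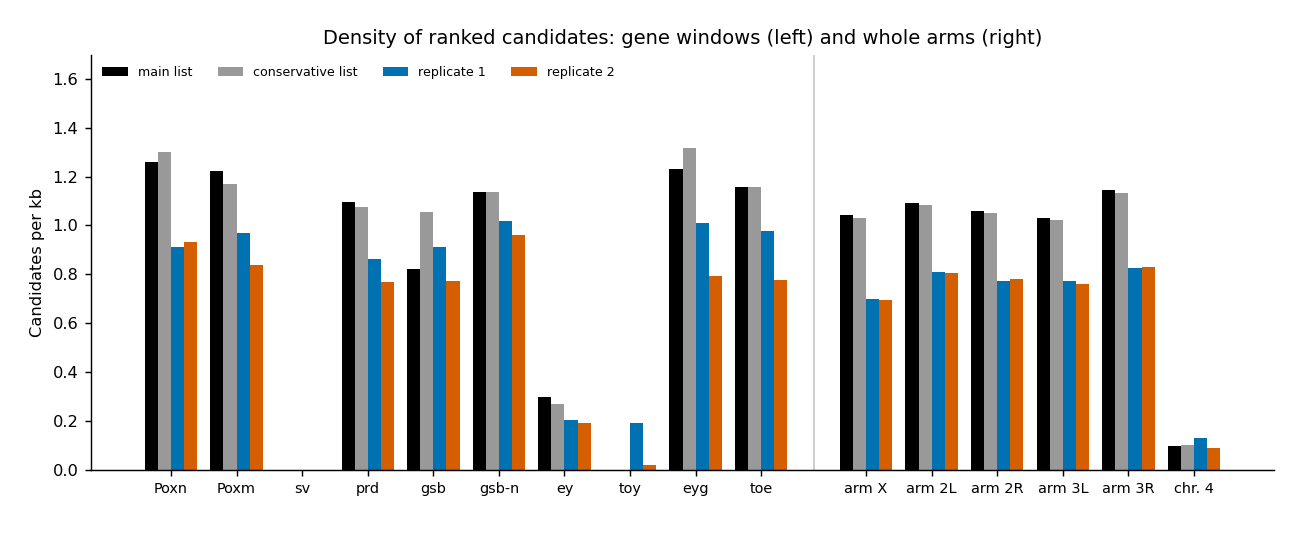
Ranked candidates per kb in the 20-kb window of each member (left of the line) and over whole chromosome arms (right of the line), one bar for each of the 4 lists. The sv, toy and ey windows and chromosome 4 as a whole are low in all 4 lists, and the other 7 member windows hold 0.820 to 1.26 candidates per kb in the main list, against 1.03 to 1.14 on the 5 major arms.

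The paired-domain core GTCACGC was present in 6 of 356 main candidates in the member windows, or 1.69%, against 1.17% of main thresholded peaks and 1.20% of all main candidates. These 6 were in the Poxn window in 2 cases, in the Poxm window in 2, and in the prd and ey windows in 1 each. All had a −log10 IDR under 2. The other words were at 7.87% for TAATTA, against 17.5% of main thresholded peaks and 9.88% of all candidates, and at 20.2% for GAGAG, against 21.5% and 23.0%. TATCGATA was at 0.281%, against 2.62% and 0.443%. A word match describes the letters and is not shown to be a bound site.

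Among these 6, the candidates inside the coding exons of prd and Poxm are shown with 12 bases on each side of the core, plus strand. They were picked because they join a member's own coding exon, a candidate and the paired-domain core. Capitals mark the core.
prd coding exon, signal 30.5: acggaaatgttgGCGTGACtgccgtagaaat
Poxm coding exon, signal 19.4: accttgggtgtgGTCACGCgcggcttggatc
The prd candidate is the highest inside that gene in the main list. It was in the top 11.4% of the list and had 17.6 in replicate 1 and 13.8 in replicate 2. The Poxm candidate was in the top 40.1% of the main list. The ey candidate, not shown, was in a noncoding exon inside ey and was weak. It had 9.24, the top 79.5%, and overlapped no candidate of either replicate. In prd the core is on the minus strand and in Poxm on the plus strand.

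The proteins share the domain that gives the family its name. Proteins were translated from the longest RefSeq coding sequence of each gene without an internal stop, and Poxn has 425 residues. Residues 2 to 132 of Poxn, the stretch that aligned with gsb, were set against each relative. Identity was 70.6% over 126 aligned residues with sv, 66.9% with Poxm, 66.1% with ey, 63.8% with gsb, 63.5% with toy, 63.0% with gsb-n and 60.6% with prd. With eyg it was 61.4% over 88 residues and with toe 55.1% over 98 residues, both shorter alignments than the 124 to 130 residues of the others. Both proteins are known for a paired domain that is reduced in its N-terminal part. The conserved word of the homeodomain recognition helix (tryptophan, phenylalanine, any residue, asparagine, arginine, arginine) was found in 7 proteins and not in Poxn, Poxm and sv.

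Genes that act beside the Pax-type genes were read in the same way from 5 lists, which hold 74 genes. Of 10 retinal determination genes, which work with ey and toy, 7 had a main peak within 20 kb, and the strongest were near Optix with a signal of 274, eya with 256 and ato with 85.7. The peak near eya was at the promoter of Trmt6, the one near ato at that of Mcm2, and the one near Optix in an intron of CG12769. Peaks at the list's own genes were 1 at a promoter of so and 1 inside hth, 1 of 10 genes in each case, against 7.72% and 5.08% of all protein-coding genes. Of 18 paired-class homeobox genes without a paired domain, 7 had one, led by Drgx with 243, repo with 217 and otp with 129. The first of these peaks was in an intron of for and the second at the promoter of CG7988. The otp peak was in a coding exon of otp itself. Inside the gene 1 of these 18, otp, had a main peak, against 5.08% of all protein-coding genes. At a promoter 0 had one, against 7.72%. Of 15 pair-rule and segment polarity genes, 7 had one, led by eve with 335, nkd with 93.4 and slp1 with 84.9. The nkd peak of 93.4 was in an intron of CG18135, 49025 bp from the nearest nkd TSS. In this list 1 gene, nkd, had a main peak at a promoter, which is another peak, against 7.72% of all protein-coding genes. Inside the gene 0 had one, against 5.08%. The eve peak was at the promoter of Pal1 and is the same peak as the strongest near Mef2.

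Of 23 sense organ genes, on whose precursors Poxn acts, 10 had a main peak within 20 kb, led by amos with 262, numb with 169 and pros with 154. The numb peak was 212 bp upstream of a numb TSS, while those near amos and pros were at the promoters of CG10413 and Irbp. In this list 5 genes (ct, numb, ttk, bab1 and bab2) had a main peak inside the gene, against 5.08% of all protein-coding genes, and 2 (numb and Dll) at a promoter, against 7.72%. The count inside genes was not matched for gene length, whose median is 2.16 kb over all protein-coding genes, and it was not tested. Of 10 somatic muscle identity genes 3 had a main peak within 20 kb, namely Mef2, eve and nau, with signals of 335, 335 and 85.7. The signal of 335 is that of the same peak for Mef2 and eve. Inside the gene 1 of these 10, Mef2, had a main peak, against 5.08% of all protein-coding genes. At a promoter 0 had one, against 7.72%. The shares within 20 kb were 70.0% for retinal determination, 46.7% for pair-rule and segment polarity, 43.5% for sense organ, 38.9% for paired-class homeobox and 30.0% for somatic muscle genes, against 47.4% of all protein-coding genes. These shares have no test, and lists of 10 to 23 genes give them low precision.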

How the data were processed

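ChIP-seq peak lists of 2 biological replicates of 1 group were used. Per the file notes, the authors made each list on dm6 from the filtered alignments of its replicates and a further shared file that is not named. Aligner, caller, IDR threshold and read depth were not given in the sources used, and no interval on a signal can be given. Signal (column 7) is the authors' deposited enrichment value per peak, with a normalization that is not stated. The −log10 of the global IDR (column 12) is the authors' deposited value, and no thresholded peak was below 2. The main and conservative lists were each paired with the ranked list by this rule, so for them it is not a separate result.

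The members and gene lists were chosen with earlier results of these data known. All listed names were matched to Ensembl release 115, 2 of them through a renamed symbol. A summit counted for a gene when it was inside the gene or within 20 kb, and for a promoter when it was within 500 bp of a TSS. Candidates overlapped when they shared 1 bp. The text names all members, the best candidate and thresholded peaks of each, up to 3 genes per list by signal, and the 3 genes most like Poxn. Peaks within 50 kb, and the candidates described inside and just upstream of Poxn and Poxm, were chosen after their values were seen. Proteins were aligned locally with BLOSUM62. No test was made, since there is 1 group. Other settings tried were an IDR of 0.001, the conservative list, single replicates, interval overlap, windows of 5, 10 and 50 kb, TSS distances of 250 and 1000 bp, ranking by IDR, the gene alone, and 4 on the members counted, chosen after the data were seen. Counting was tested on simulated peaks. Python 3.11.15, pandas 2.3.3, NumPy 2.4.6, Biopython 1.88 and matplotlib 3.10.9 were used.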

Additional observations from a re-analysis of the deposited data

How the results depend on the processing

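The number of members with a main peak within 20 kb was 3 and stayed at 2 or 3 under the conservative list, each replicate alone, an IDR of 0.001, interval overlap and the 2 restrictions of the members added after the data were seen. The counts inside genes and at promoters were 0 under every alternative run on them. The window decided the first count. At 10 kb and at 5 kb there were 0 members, 0 peaks and a density of 0 per Mb, and at 50 kb there were 7 members, 10 peaks and 10.6 per Mb. The density of 6.22 per Mb became 4.15 under the conservative list and under an IDR of 0.001, in both of which the Poxn peak was lost. It was 10.1 per Mb without the 3 members on chromosome 4, an alternative added after the data were seen. With 1 replicate left out it ranged from 4.15 to 6.22: replicate 1 alone lost the prd peak, and replicate 2 alone lost the Poxn peak and gained the toy peak.

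The median best rank of the members was the top 2.94%. It was 1.96% and 2.36% with 1 replicate left out, 8.93% inside the gene only, 1.95% ranked by IDR and, added after the data were seen, 1.61% without the 3 members on chromosome 4. The highest signal within 20 kb of a member was 135. With 1 replicate left out it was 65.2 and 97.5, on the scale of each replicate's own list, and inside the gene it was 43.7. The cause of these changes was not tested beyond what each setting fixes by construction. No paired analysis was possible because there is 1 group and no test. Depth is unknown, and chromosome 4 as a whole holds too few candidates for an absent peak within 20 kb of its members to be read.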
